A study of Mus musculus with 23 samples.

Results

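Collagen genes were examined in mouse embryonic fibroblasts (MEFs), CD8+ T cells and CD8 lymphomas. The members were all genes whose symbol on the array has the form Col, number, a, number, and that a probe set names alone. They numbered 36 of the 12393 genes with a probe set of their own: 9 fibrillar collagens, 6 basement membrane collagens, 9 FACIT collagens (fibril-associated collagens with interrupted triple helices) and 12 others. Each gene was read through the probe set with the highest mean over all arrays, out of 58 probe sets that name a collagen alone. Levels are log2 of the deposited intensities. The probes of an array differ in brightness, so levels are compared between arrays and not between genes.

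The 23 Affymetrix Mouse 430A 2.0 arrays fell into 6 groups. The MEFs came from embryos at E13.5 and were wild type, conditionally inactivated for Ezh2 (Ezh2-deficient) or for both Snf5 and Ezh2 (Snf5 Ezh2-deficient), with 3 arrays in each mutant group. Each mutant group had 3 wild-type arrays as its own control. The other groups were CD8+ T cells purified from wild-type mice (6 arrays) and from Snf5-deficient lymphomas (5 arrays), with mouse ages of 10 to 15 weeks in both. The Polycomb complex PRC2 methylates histones through Ezh2. Snf5, which Smarcb1 encodes, belongs to the SWI/SNF complexes that remodel chromatin. The study set out to examine how both regulators oppose each other in gene control. For the alleles, the agent or promoter that drove the deletions, the MEF clones and any pooling of animals, the sources used here give no details. The titles call the samples biological replicates without saying whether cultures or animals were separate, so each p-value reflects the spread of these arrays alone, which may be technical.

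Collagens are secreted proteins of 3 chains wound into a triple helix, made as procollagens that are hydroxylated and folded in the endoplasmic reticulum, trimmed outside the cell and cross-linked into fibrils or networks. Fibroblasts are their main source in connective tissue. Types I, III and V form the fibrils of skin, tendon and vessel walls, types II and XI those of cartilage, type IV the network of basement membranes. Resting T cells are not known as collagen producers.

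The targeted genes followed the labels. Ezh2 fell by 1.66 on the log2 scale (adjusted p = 8.99e-06) and Smarcb1 fell by 2.46 (adjusted p = 1.01e-07) where both were inactivated. Ezh2 fell by 2.18 in the Ezh2-deficient cells (adjusted p = 9.32e-06), and Smarcb1 fell by 3.65 in the lymphomas (adjusted p = 0.00244). Whether the probes lie inside the deleted parts was not examined. The fibroblast markers had list means of 10.08 to 10.65 on the MEF arrays, with 9 of 9 measured and none in the lowest 25% of an array throughout a group. The controls of both MEF sets came from the same 3 hybridisations, so both MEF comparisons share all their controls and 9 distinct MEF arrays were fitted. Ezh2-deficient arrays 2 and 3 stood apart in sex-linked genes: Eif2s3y, a gene of the Y chromosome, read 3.65 and 4.00 there against 8.02 to 8.53 on the other MEF arrays. Sex-linked genes also differed between the T cell groups. Xist, expressed from the inactive X chromosome, read 12.85 to 13.51 on all 6 wild-type CD8 arrays, 13.19 and 12.25 in lymphomas 1 and 5 and 4.85 to 5.44 in lymphomas 2 to 4 (difference -4.98, adjusted p = 0.0483). Eif2s3y read 11.81 to 12.55 in lymphomas 2 to 4, 3.32 and 3.45 in the other lymphomas, 9.84 and 6.11 on wild-type arrays 3 and 4 and at most 3.91 on the other wild-type arrays. Wild-type CD8 arrays 1 and 6 stood apart in cell type markers. Their Cd8a levels were 10.73 and 10.59 against 13.32 to 13.64 on the other 4 wild-type arrays, and Lyz2, a macrophage gene, read 14.22 and 14.20 against 7.02 to 9.68. For the collagens and the counts of folding genes, results without these arrays are also given below. Other tests of the lymphomas include them.

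In Snf5 Ezh2-deficient MEFs, 7 of 36 collagen genes rose and 6 fell against wild type, and 23 did not pass the test (limma with Benjamini-Hochberg adjustment over all 22626 probe sets, threshold 0.05). Over all genes 13.2% were called higher and 14.3% lower, and the collagen counts lay near those shares. The genes that rose were Col5a3, Col18a1, Col2a1, Col11a1, Col10a1, Col4a6 and Col11a2. Those that fell were Col5a1, Col12a1, Col6a3, Col7a1, Col4a2 and Col4a1. The median change over the 36 members was 0.03, against -0.00 over all genes. Among fibrillar collagens 4 of 9 rose and 1 fell (median 0.26). Among basement membrane collagens 1 of 6 rose and 2 fell (median -0.10), among FACIT collagens 0 of 9 rose and 1 fell (median 0.01), and among the others 2 of 12 rose and 2 fell (median 0.04). In cultures of mixed cells, a change in the number of cells of a type and a change of RNA per cell cannot be told apart.

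**Figure D1:**
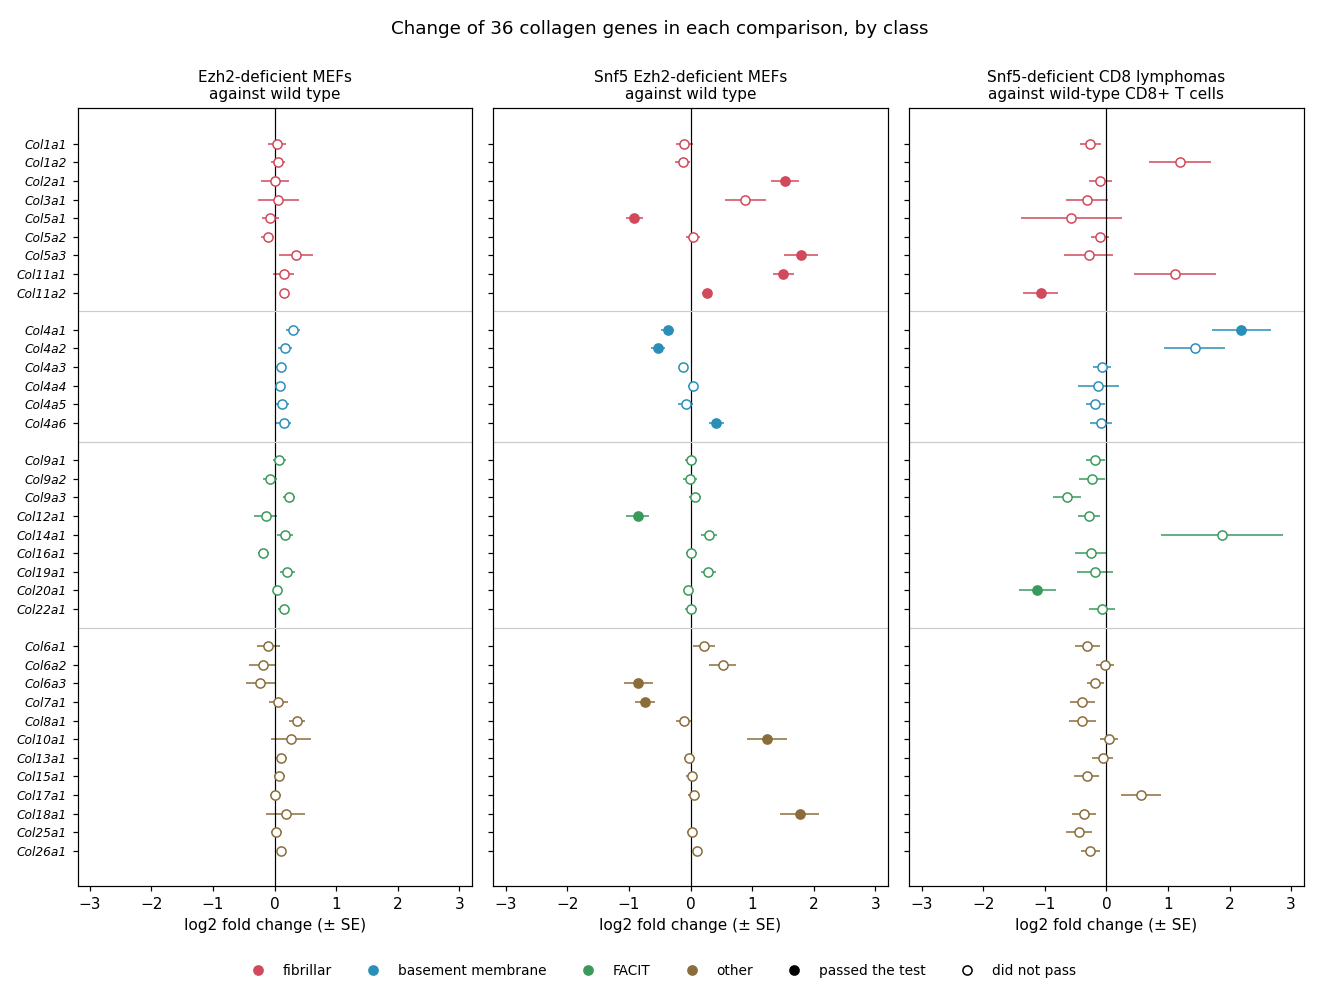
Log2 fold change of each of 36 collagen genes in 3 comparisons (x axis; bars are the standard error), grouped by collagen class; filled points passed the test and open points did not. In the Ezh2-deficient MEFs no point is filled, in the Snf5 Ezh2-deficient MEFs 13 are, and in the lymphomas 3 are.

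Col2a1 and Col11a1, fibrillar collagens of cartilage, rose together with Col5a3. Col9a1, Col9a2 and Col9a3, the chains of the cartilage FACIT type IX, differed by 0.01, -0.01 and 0.07. None of these 3 passed (adjusted p = 0.97, 0.962 and 0.683). Col11a1, the chain that nucleates thin cartilage fibrils, read 10.12, 10.14 and 9.95 on the wild-type arrays and 11.57, 11.58 and 11.58 on the Snf5 Ezh2-deficient arrays. The mutant arrays lay within 0.01 of each other and above every wild-type array. The change was 1.51 (SE 0.168), or 2.84-fold (adjusted p = 0.000143). Col2a1, the main fibrillar collagen of cartilage, read 8.82, 7.93 and 8.53 in wild type and 10.27, 10.07 and 9.56 in the mutant. All mutant arrays were above all wild-type arrays although the wild-type arrays spread widely (SD 0.452), and the rise was 2.91-fold (log2 1.54, SE 0.225; adjusted p = 0.000695). Col11a2, the partner chain of Col11a1 in type XI, moved far less, from 6.76, 6.50 and 6.59 to 6.90, 6.93 and 6.79. Its rise of 0.26 (adjusted p = 0.028) missed the threshold when any of 4 of the 6 arrays was left out. Col5a3, a minor chain of type V that is found in fewer tissues than the other chains, read 7.30, 7.47 and 7.58 in wild type and 8.88, 9.63 and 9.23 in the mutant. It had the largest rise of all members, 3.47-fold (log2 1.79, SE 0.278; adjusted p = 0.000976). Its second probe set moved by 0.35 and did not pass (adjusted p = 0.132).

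The chains of type V moved in opposite directions. Col5a1, the chain present in most type V molecules and a regulator of fibril diameter, read 12.25, 12.13 and 12.28 in wild type and 11.12, 11.20 and 11.61 in the mutant. The groups did not overlap, and the fall was 1.88-fold (log2 -0.91, SE 0.134; adjusted p = 0.000692). Col5a2, the partner chain, read 13.58, 13.56 and 13.65 against 13.67, 13.61 and 13.65, a difference of 0.04 (SE 0.107; adjusted p = 0.815).

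Both chains of type I, the chief collagen of fibroblasts, did not pass in either MEF comparison. Col1a1 read 13.39, 13.42 and 13.42 on the wild-type arrays and 13.10, 13.27 and 13.56 on the Snf5 Ezh2-deficient arrays, so the groups overlapped (difference -0.10, SE 0.141; adjusted p = 0.677). A second Col1a1 probe set differed by 0.42 and did not pass (adjusted p = 0.0886). Col1a2 differed by -0.13 (SE 0.115; adjusted p = 0.46). Col3a1, which forms fibrils beside type I, read 11.80, 12.31 and 11.91 in wild type and 12.66, 12.97 and 13.05 in the mutant. The groups did not overlap, yet the difference of 0.89 (SE 0.329) did not pass (adjusted p = 0.0743). The shared fit also held the Ezh2-deficient arrays, whose Col3a1 values of 12.21, 13.14 and 11.48 had an SD of 0.834. With the 6 arrays of its own set alone the same difference passed (adjusted p = 0.00263).

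**Figure D2:**
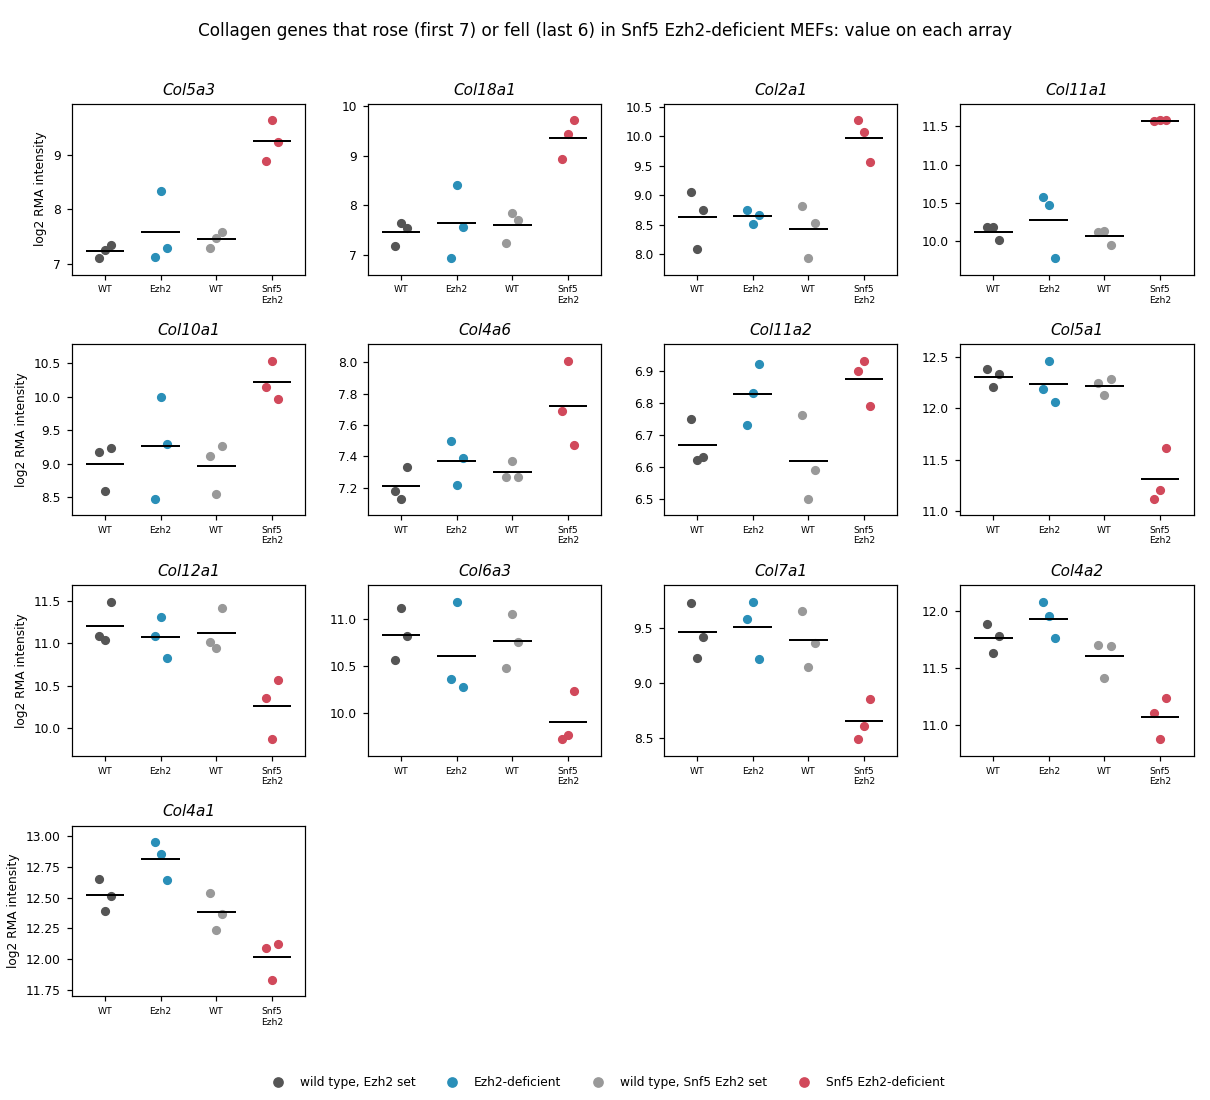
Log2 RMA intensity (y axis, a separate scale per panel) of the 13 collagen genes called in Snf5 Ezh2-deficient MEFs on every MEF array; points are arrays, black lines group means, and the x axis gives the 4 groups in their 2 sets. The panels hold genes chosen by the test on these same arrays. The Snf5 Ezh2-deficient arrays lie apart from their own wild-type arrays in each panel, with Col11a1 at 11.57 to 11.58.

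The promoters of several of these genes are given because the genes moved together or apart in these arrays. The windows of RefSeq on build GRCm38.p6, 300 bases each, were available for 27 of 36 members. Each line below gives 150 bases before to 10 bases after the start site, 5′ to 3′ on the gene's own strand. Capitals mark matches on either strand to 3 motifs. The CCAAT box was searched by its own letters, the GC box of Sp-family factors as GGGCGG and the TATA box as TATAAA. A reverse match of the first reads ATTGG, and one of the GC box reads CCGCCC. Col11a1 lies at chr3:114030390-114030549 on the + strand, Col5a3 at chr9:20815058-20815217 on the - strand, Col10a1 at chr10:34389831-34389990 on the + strand and Col5a1, which fell, at chr2:27886275-27886434 on the + strand.
Col11a1: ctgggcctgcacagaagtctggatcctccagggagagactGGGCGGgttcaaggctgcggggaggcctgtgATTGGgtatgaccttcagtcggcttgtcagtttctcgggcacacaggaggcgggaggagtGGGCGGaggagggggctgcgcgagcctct
Col5a3: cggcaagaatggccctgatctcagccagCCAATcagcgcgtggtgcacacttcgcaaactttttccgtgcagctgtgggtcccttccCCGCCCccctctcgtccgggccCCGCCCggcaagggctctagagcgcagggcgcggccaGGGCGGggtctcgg
Col10a1: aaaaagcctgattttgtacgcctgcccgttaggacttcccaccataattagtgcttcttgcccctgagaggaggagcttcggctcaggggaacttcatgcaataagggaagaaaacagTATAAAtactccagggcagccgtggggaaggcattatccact
Col5a1: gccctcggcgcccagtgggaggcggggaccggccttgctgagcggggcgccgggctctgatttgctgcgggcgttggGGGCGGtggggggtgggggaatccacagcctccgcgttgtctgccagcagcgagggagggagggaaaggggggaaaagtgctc
Col11a1 and Col5a3 hold a CCAAT box and GC boxes, Col10a1 a TATA box whose first base lies at position -32 from the start site, and Col5a1 a GC box alone. In the whole windows, of the 6 risen genes with a window 3 held CCAAT, 5 GGGCGG, 2 TATAAA and 2 the E-box letters CANNTG. Of the 5 fallen genes with a window 3 held CCAAT, 4 GGGCGG, 0 TATAAA and 0 CANNTG. Among all 32851 windows of the same length the shares were 37.4%, 35.7%, 13.6% and 72.3% in the same order. The letters of 1 motif overlapped those of another nowhere in the lines above, CANNTG aside. These matches are descriptions of sequence and do not show a factor bound there.

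The chief chains of basement membranes fell. Col4a2 read 11.70, 11.41 and 11.69 on the wild-type arrays and 11.10, 10.87 and 11.23 on the Snf5 Ezh2-deficient arrays. The groups did not overlap, and the fall was 1.45-fold (log2 -0.53, SE 0.114; adjusted p = 0.00593). Col4a1, with which it forms the commonest type IV molecule, read 12.54, 12.24 and 12.37 against 12.09, 11.83 and 12.12. The groups lay apart by little, and the fall of 0.37 (adjusted p = 0.0283) lost the threshold with wild-type array 1 left out (0.114), and likewise for wild-type array 3 (0.0714) and mutant array 2 (0.103). A second Col4a1 probe set fell by 0.40 (adjusted p = 0.0217). Col4a6, found in the basement membranes of a few tissues such as smooth muscle, rose from 7.27, 7.37 and 7.27 to 7.69, 8.01 and 7.47. The rise of 0.42 (adjusted p = 0.0282) held without 1 of 6 single arrays only. A second Col4a6 probe set rose by 0.36 (adjusted p = 0.000991). Col4a5, its neighbour and partner, differed by -0.08 (adjusted p = 0.69), and Col4a3 and Col4a4, chains of kidney basement membranes, by -0.12 and 0.04 (adjusted p = 0.275 and 0.818). Col4a4 lay in the lowest 25% of its arrays throughout.

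Type IV genes lie in head-to-head pairs. The transcripts of Col4a1 and Col4a2 start on opposite strands and share 22 bases at their starts in the RefSeq annotation, while 1342 bases separate the starts of Col4a6 and Col4a5. A stretch beside the Col4a2 start is shown because both genes fell together, at chr8:11312757-11312786 (build GRCm38.p6, + strand of Col4a2, from base 48 before its start). It lies outside the shared bases, downstream of the Col4a1 start, and is thus within the Col4a1 gene on the other strand. The Col4a6 promoter, at chrX:141474067-141474226 on the - strand, is shown because that gene rose without its neighbour. Capitals mark the same letters as above.
Col4a2: CCGCCCgaggagctccCCAATttgttggcg
Col4a6: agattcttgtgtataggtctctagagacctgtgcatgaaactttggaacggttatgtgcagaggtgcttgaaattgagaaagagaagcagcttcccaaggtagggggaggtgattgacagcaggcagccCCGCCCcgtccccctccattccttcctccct
The Col4a2 stretch holds a reverse GC box and a CCAAT box within 30 bases, and Col4a6 a reverse GC box at position -21 from its start site. Of 6 pairs of members that neighbour each other among protein-coding genes, Col4a1 and Col4a2 were the 1 pair called in the same direction. Col6a1 and Col6a2 read changes of 0.22 and 0.52, Col3a1 and Col5a2 0.89 and 0.04, and Col9a1 and Col19a1 0.01 and 0.29, none of which passed.

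Outside the fibrils and type IV, Col18a1 and Col10a1 rose. Col18a1, a collagen of basement membrane zones whose end fragment is endostatin, read 7.25, 7.84 and 7.71 in wild type and 8.94, 9.44 and 9.71 in the mutant. Every mutant array was above every wild-type array, and the rise was 3.40-fold (log2 1.77, SE 0.321; adjusted p = 0.00252). Col10a1, the collagen of hypertrophic cartilage, read 9.11, 8.55 and 9.26 against 10.14, 10.53 and 9.97, a rise of 2.36-fold (log2 1.24, SE 0.324; adjusted p = 0.0171). That call was lost without wild-type array 2 (0.0683) or mutant array 2 (0.0722), and with an intensity trend and robust prior (0.0626).

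Col12a1, Col6a3 and Col7a1 fell. Col12a1, a FACIT that coats type I fibrils, read 11.01, 10.94 and 11.41 in wild type and 10.35, 9.87 and 10.57 in the mutant, a fall of 1.81-fold (log2 -0.86, SE 0.187; adjusted p = 0.00661). Col7a1, the anchoring fibril collagen of skin, read 9.65, 9.15 and 9.36 against 8.49, 8.61 and 8.86, and fell 1.67-fold (log2 -0.74, SE 0.157; adjusted p = 0.00597). In both, the groups did not overlap and the call held without each array in turn. Col6a3, the largest chain of the microfibril collagen type VI, read 10.48, 11.05 and 10.75 against 9.72, 9.77 and 10.23. Its fall of 0.85 (SE 0.236; adjusted p = 0.0225) was lost when any of 4 arrays was left out, and with an intensity trend and robust prior (0.0636). Its partner chains Col6a1 and Col6a2 lay higher by 0.22 and 0.52 and did not pass (adjusted p = 0.458 and 0.113).

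The remaining members moved little. All 8 FACIT collagens other than Col12a1 did not pass, with differences from -0.04 for Col20a1 to 0.30 for Col14a1 (adjusted p = 0.71 and 0.128). For Col19a1 the chosen probe set differed by 0.29 (adjusted p = 0.117), and another one by 0.71 (adjusted p = 0.0101), although the gene lay in the lowest 25% of its arrays throughout. The same low range held Col4a4, Col9a2, Col13a1, Col17a1, Col22a1 and Col26a1, 7 of 36 members in all, against 20% of all genes in the Snf5 Ezh2-deficient group. Small differences of these 7 are differences near the floor of the array. Of 13 called members, 6 had more than 1 probe set. In all 6 the probe sets moved in the same direction, and in 5 each of them passed. These probe sets were read on the same arrays, and the share over all called genes is not given here.

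Markers of cartilage cells were read beside the cartilage collagens. Of 8 chondrocyte markers other than collagens, Matn3, a cartilage matrix protein, rose by 0.61 (adjusted p = 0.00237) and the other 7 did not pass. Sox9, the transcription factor that drives Col2a1 in chondrocytes, read 6.81, 6.78 and 6.76 in wild type and 6.95, 6.93 and 6.89 in the mutant, a difference of 0.14 (adjusted p = 0.215). Acan, the main cartilage proteoglycan, differed by -0.05 (adjusted p = 0.689). On every MEF array Cnmd, Matn1 and Hapln1 were within the lowest 25%. The list mean was 5.32 to 5.42 in wild type and 5.40 to 5.51 in the mutant. The osteoblast markers, 4 measured of 7, had 0 calls, and Ibsp and Dmp1 were in the lowest 25% throughout. Among fibroblast markers Pdgfra, a growth factor receptor of mesenchymal cells, rose by 1.76 (adjusted p = 0.000469), Fn1, fibronectin, fell by 0.21 (adjusted p = 0.0278), and 7 of 9 did not pass. Of 6 myofibroblast and smooth muscle markers, Myh11 and Actg2 rose by 0.98 and 0.95 (adjusted p = 0.0486 and 0.00847), and Tagln and Cnn1 fell by 0.38 and 0.75 (adjusted p = 0.0037 and 0.0347). Of 7 endothelial markers Tek rose by 1.46 (adjusted p = 1.70e-06) and Emcn fell by 0.53 (adjusted p = 0.000726), with list means of 5.24 to 5.29 in wild type and 5.30 to 5.52 in the mutant, where 5 of 7 were in the lowest 25% on all arrays. Krt18 fell by 1.20 among 7 epithelial markers (adjusted p = 0.000578; list means 6.05 to 6.13 and 5.86 to 5.92), and Acta1 fell by 1.53 among 6 skeletal muscle markers (adjusted p = 0.00089; list means 5.95 to 6.04 and 5.62 to 5.70). The part of cell makeup in the collagen changes was not tested.

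In Ezh2-deficient MEFs, 0 of 36 collagen genes passed the test in limma. Over all genes 1.02% were called higher and 2.47% lower. At an unadjusted p under 0.05 there were 3 members, or 8.33%, against 25.3% of all genes. These were Col8a1, a short-chain network collagen (0.37, adjusted p = 0.128), Col4a1 (0.30, adjusted p = 0.139) and Col9a3, a chain of the cartilage FACIT type IX (0.23, adjusted p = 0.191). Differences ran from -0.23 for Col6a3 to 0.37 for Col8a1, with a median of 0.08 against 0.00 over all genes. Col8a1 read 10.45, 10.50 and 10.54 in wild type and 11.17, 10.90 and 10.53 in the mutant, so the last array lay among the wild-type values. Without Ezh2-deficient array 3, 2 members passed, Col8a1 (0.54, adjusted p = 0.023) and Col11a1 (0.40, adjusted p = 0.0348).

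The Ezh2-deficient arrays differed among themselves. On array 2, Col5a3 read 8.33 against 7.13 and 7.30 on the other arrays of the group, Col18a1 8.41 against 6.94 and 7.57, Col10a1 10.00 against 8.48 and 9.30, and Col3a1 13.14 against 12.21 and 11.48. Of these 4 genes all but Col3a1 rose in the Snf5 Ezh2-deficient MEFs, and they were picked here after their values were seen. Array 2 is 1 of the 2 arrays with low Eif2s3y. Array 3, the other, read 7.30 for Col5a3, 7.57 for Col18a1, 9.30 for Col10a1 and 11.48 for Col3a1. The highest wild-type arrays of that set read 7.34, 7.65, 9.23 and 12.52 in the same order. The part of sex in this spread was not tested. The median SD of the members was 0.161 in this group against 0.119 in its wild-type arrays, and that of all genes 0.084 against 0.072.

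The difference between both mutant effects was tested directly, as the Snf5 Ezh2 effect minus the Ezh2 effect. It was positive for 6 members and negative for 7, against 16.3% and 13.6% of all genes, so the count of collagens lay near the background. Positive were Col18a1 (1.59), Col2a1 (1.53), Col5a3 (1.44), Col11a1 (1.35), Col10a1 (0.98) and Col6a2 (0.71), with adjusted p between 0.000273 and 0.0472. Negative were Col5a1 (-0.84), Col7a1 (-0.79), Col12a1 (-0.72), Col4a2 (-0.70), Col4a1 (-0.67), Col8a1 (-0.48) and Col4a3 (-0.22), with adjusted p between 0.00118 and 0.0451. Col2a1, for example, differed by 0.01 (SE 0.225) in the Ezh2-deficient MEFs and by 1.54 in the Snf5 Ezh2-deficient MEFs. Col4a1 and Col4a2 lay above wild type by 0.30 and 0.17 in the former, neither passing, and fell in the latter. Some of these calls depended on single arrays. With each of 9 arrays left out in turn, Col10a1 was called 2 times, with differences of 0.59 to 1.35, Col4a3 2 times, Col6a2 5 times, Col8a1 7 times and Col12a1 8 times, while the other 8 were called 9 times. The sets were brought to 1 scale through their repeated controls, whose error this test leaves out. With the 12 arrays taken as distinct samples, 8 of the 13 differences passed.

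Enzymes that trim procollagens and cross-link fibrils, and their helpers, were mostly lower. Of 9 measured, 6 fell and 1 rose in the Snf5 Ezh2-deficient MEFs, with a median change of -0.73, against 14.3% and 13.2% of all genes. Pcolce, which speeds the removal of the C-terminal propeptide, read 12.06, 12.12 and 12.03 in wild type and 10.51, 10.80 and 10.96 in the mutant. The groups lay apart by more than 1 log2 unit, a fall of 2.48-fold (log2 -1.31, SE 0.0984; adjusted p = 1.25e-05). Its relative Pcolce2 read 9.41, 9.09 and 9.20 against 7.49, 7.05 and 7.07, a fall of 4.09-fold (-2.03, SE 0.18; adjusted p = 3.55e-05). The proteinases that Pcolce assists fell too, Bmp1 by 0.73 (adjusted p = 0.000739) and Tll1 by 0.74 (adjusted p = 0.0178; called without 3 of 6 single arrays). Among lysyl oxidases, which cross-link collagens, Loxl4 read 9.07, 9.12 and 9.25 against 7.37, 7.34 and 7.45, and fell 3.39-fold (-1.76, SE 0.0792; adjusted p = 1.21e-06). Loxl1 fell by 0.37 (adjusted p = 0.0101), Loxl3 rose by 0.63 (adjusted p = 0.00388), and Lox itself read 13.30, 13.36 and 13.45 against 13.33, 13.26 and 13.33 (-0.07, adjusted p = 0.734). In the Ezh2-deficient MEFs 0 of the 9 passed in limma, and Loxl1 had the smallest p (-0.32, adjusted p = 0.0784). Over all genes 1.02% were called higher there and 2.47% lower, so a count of 0 lies near those shares. The difference between both mutant effects was called for 6 of the 9, of which 5 were negative, among them Loxl4 (-1.52), Pcolce2 (-1.45), Tll1 (-1.34) and Pcolce (-1.18). Over all genes that difference was called negative for 13.6% and positive for 16.3%. Across the settings tried, 5 or 6 of the 9 fell where both genes were inactivated.

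**Figure D3:**
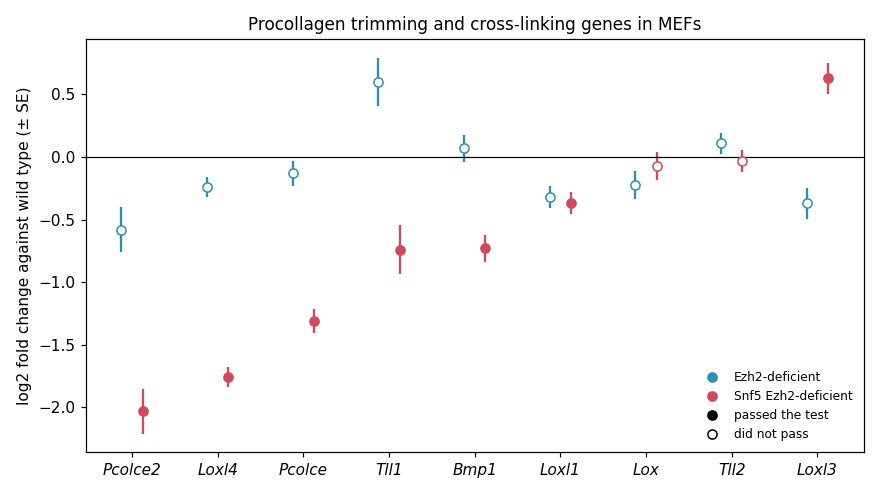
Log2 fold change against wild type (y axis; bars are the standard error) of 9 procollagen trimming and cross-linking genes in Ezh2-deficient (blue) and Snf5 Ezh2-deficient (red) MEFs; filled points passed the test. In the Snf5 Ezh2-deficient MEFs 6 genes lie below 0 and passed, from Pcolce2 at -2.03 to Loxl1 at -0.37, and in the Ezh2-deficient MEFs no point is filled. Of all genes, 14.3% were called lower in the former and 2.47% in the latter.

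Of 18 genes of the folding machinery in the endoplasmic reticulum, 1 rose and 2 fell where both genes were inactivated, while 13.2% of all genes rose and 14.3% fell. Crtap rose by 0.26 (adjusted p = 0.00776) and P3h4 fell by 0.38 (adjusted p = 0.00612), both members of prolyl 3-hydroxylase complexes, and Sec23a, a coat protein of the vesicles that carry procollagen, fell by 0.30 (adjusted p = 0.0496), a call lost when any of the 6 arrays was left out. Serpinh1, the collagen chaperone, differed by -0.04 (adjusted p = 0.683). In the Ezh2-deficient MEFs 0 of the 18 passed in limma, near the shares of all genes there (1.02% higher and 2.47% lower). Plod1, a lysyl hydroxylase, had the smallest p (-0.34, adjusted p = 0.0678).

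The other partners moved in both directions, and their counts in the Snf5 Ezh2-deficient MEFs are to be read against 13.2% of all genes higher and 14.3% lower. Calls in the Ezh2-deficient MEFs (1.02% of all genes higher, 2.47% lower) depended on single arrays, as given beside each. Of 9 small proteoglycans that bind collagen fibrils, Ogn rose by 1.03 (adjusted p = 0.00308) and Bgn fell by 0.65 (adjusted p = 0.000271) in the Snf5 Ezh2-deficient MEFs. In the Ezh2-deficient MEFs Fmod fell by 0.94 (adjusted p = 0.0321), from 7.74, 7.80 and 8.03 to 6.93, 7.29 and 6.51, and was called without 1 of 6 single arrays. Of 7 collagen receptors, Ddr2 and Itga2 rose by 0.34 and 0.30 and Itgb1 fell by 0.38 where both genes were inactivated (adjusted p = 0.027, 0.0212 and 0.00209; called without 2, 3 and 6 of the 6 single arrays). In the Ezh2-deficient MEFs Ddr1 rose by 0.46 and Itga2 by 0.37 (adjusted p = 0.023 and 0.0424). With each of 6 arrays left out in turn, Ddr1 was called 3 times and Itga2 at no time (adjusted p up to 0.146), and Itga2 was in the lowest 25% of every wild-type MEF array.

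Of 12 collagen-degrading proteases and their inhibitors, Ctsk, a cysteine protease that cleaves fibrillar collagen, read 8.95, 9.50 and 9.27 in wild type and 7.34, 7.52 and 7.76 where both genes were inactivated. The groups did not overlap, and it fell by 1.70 (adjusted p = 9.16e-05). Reck, a membrane inhibitor of metalloproteinases, rose by 1.01 (adjusted p = 0.000148). Mmp2, a gelatinase, rose by 0.86 in the Ezh2-deficient MEFs (adjusted p = 0.0359), a call lost without any 1 of the 6 arrays (adjusted p up to 0.114). Of 13 basement membrane partners of type IV collagen, 3 rose and 2 fell where both genes were inactivated, while 13.2% of all genes rose and 14.3% fell. Lama4, a laminin chain, and Nid2, a nidogen, rose by 1.00 and 0.68 (adjusted p = 0.0234 and 0.00899; Lama4 was called without 4 of 6 single arrays), while Lama2 and Nid1 fell by 0.72 and 0.52 (adjusted p = 0.00208 and 0.00162). Nid1, the linker between laminin and type IV collagen, rose by 0.44 in the Ezh2-deficient MEFs (adjusted p = 0.0313), a call also lost without any 1 array (adjusted p up to 0.0967). The difference between both effects was -0.96 for Nid1 (adjusted p = 4.59e-05), in the same direction as those of Col4a1 and Col4a2. Of the 13 partners, this difference was called negative for 3 and positive for 1, against 13.6% and 16.3% of all genes. The positive one was Lamb2, a laminin chain (0.70, adjusted p = 0.000166). Of 17 genes of TGF-beta signalling, a known inducer of collagen genes, 4 rose and 3 fell where both genes were inactivated. The shares of all genes there were 13.2% and 14.3%. The ligand Tgfb3 rose by 0.98 and Tgfb1 fell by 0.71 (adjusted p = 0.00038 and 0.000347), and the receptors Tgfbr3 and Tgfbr2 rose by 0.61 and 0.50 (adjusted p = 0.0122 and 0.0241; Tgfbr2 was called without 2 of 6 single arrays). Tgfb3 also rose in the Ezh2-deficient MEFs, by 0.56 (adjusted p = 0.0468), and was called without 1 of 6 single arrays.

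In the lymphomas 1 of 36 collagen genes rose and 2 fell against wild-type CD8+ T cells. Over all genes 9.13% were called higher and 7.71% lower. Many were near the floor: 14 of 36 members in the wild-type cells and 15 in the lymphomas lay in the lowest 25% of every array of the group, against 16.2% and 19% of all genes. The T cell markers, 7 measured of 8, had list means of 11.06 to 13.38 in wild type. Those of the lymphomas lay within that range, with 12.96 the highest. The low end of the range came from wild-type arrays 1 and 6, at 11.67 and 11.06. Wild-type arrays 2 to 5 had means of 12.80 to 13.38, and every lymphoma but lymphoma 3, at 12.96, lay below all of them.

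Col4a1 rose. It read 3.94 to 5.75 in the wild-type cells, with a median of 4.72, and 6.74, 7.56, 8.01, 5.08 and 7.17 in the lymphomas. All lymphomas but lymphoma 4 lay above all wild-type arrays, so the groups overlapped. The rise was 4.55-fold (log2 2.19, SE 0.483; adjusted p = 0.012), and the call held without each of the 11 arrays in turn. A second probe set rose by 1.47 (adjusted p = 0.0361). Wild type was in the lowest 25% on 5 of 6 arrays, so the size of this rise rests on values near the floor. Col4a2, its head-to-head neighbour, read 6.06, 7.81, 7.80, 5.11 and 6.78 in the lymphomas and 4.75 to 6.07 in wild type (median 4.98). Its difference of 1.43 (SE 0.497) did not pass (adjusted p = 0.0766). It passed without wild-type arrays 1 and 6 (1.82, adjusted p = 0.0331), which read highest for it in wild type, and without lymphoma 4 (1.83, adjusted p = 0.0228).

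Markers of other cell types were read beside it. The endothelial list, 7 of 7 measured, had means of 4.82 to 5.30 in the lymphomas, with 5 of 7 in the lowest 25% on every lymphoma array. Its means were 5.21 to 5.51 on wild-type arrays 2 to 5 and 6.16 and 6.00 on arrays 1 and 6. Cdh5, a defining endothelial gene, read 4.65 to 4.81 in the lymphomas and 4.57 to 5.26 in wild type. The fibroblast list, 9 of 9 measured, ran from 8.50 to 9.06 in the lymphomas, from 7.41 to 7.74 on wild-type arrays 2 to 5 and at 8.61 and 8.71 on arrays 1 and 6. Its defining matrix gene Dcn read 4.65 to 5.22 in the lymphomas and 4.55 to 5.34 in wild type, while S100a4 and Fap rose by 2.02 and 2.30 (adjusted p = 0.0443 and 0.0457), Pdgfrb fell by 0.53 (adjusted p = 0.0438) and 6 of 9 did not pass. The macrophage list, 7 of 7 measured, ran from 6.86 to 9.56 in the lymphomas, from 5.27 to 6.63 on wild-type arrays 2 to 5 and at 11.17 and 11.11 on arrays 1 and 6. Lymphoma 2, the lowest of its group in that list, read 7.56 for Col4a1, and the other lymphomas read 5.08 to 8.01. Of 7 epithelial markers Epcam rose by 3.82 and Cdh1 fell by 3.59 (adjusted p = 0.00157 and 0.00501). The list means were 6.51 to 7.06 in the lymphomas, 6.06 to 6.67 on wild-type arrays 2 to 5 and 6.96 and 7.21 on arrays 1 and 6. Of 6 myofibroblast and smooth muscle markers Actg2 rose by 2.43 (adjusted p = 0.03), with list means of 5.31 to 5.65 and 5.15 to 5.65. The B cell list, 5 measured of 6, ran from 5.92 to 6.43 in the lymphomas, from 7.28 to 7.80 on wild-type arrays 2 to 5 and at 10.47 and 10.46 on arrays 1 and 6. Cd79b fell by 4.01 (adjusted p = 0.000958). Among T cell markers Cd2 fell by 4.05 (adjusted p = 0.0102). The part of other cells in the rise was not tested. In lymphomas 1 and 5, whose Xist was high as in wild type, Col4a1 read 6.74 and 7.17, and in lymphomas 2 to 4 it read 7.56, 8.01 and 5.08. The highest wild-type array read 5.75. The part of sex in the rise was not tested.

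Col11a2 and Col20a1 fell. Col11a2 read 5.34 to 7.00 in wild type (median 6.42) and 5.34, 5.38, 4.68, 5.35 and 5.36 in the lymphomas. Wild-type array 1 lay level with every lymphoma but lymphoma 3. The fall was 2.10-fold (log2 -1.07, SE 0.285; adjusted p = 0.0281) and was lost when any of 6 of the 11 arrays was left out. Col20a1, a little-studied FACIT, read 7.05 to 8.68 in wild type (median 7.56) and 6.23, 7.11, 6.85, 6.39 and 6.63 in the lymphomas. The groups overlapped at wild-type array 1 and lymphoma 2, and the fall of 2.18-fold (log2 -1.12, SE 0.299; adjusted p = 0.0281) was lost when any of 4 arrays was left out. Without wild-type arrays 1 and 6, 6 members passed. Col4a1 and Col4a2 rose, and Col9a3 (-0.78, adjusted p = 0.0293) and Col25a1 (-0.66, adjusted p = 0.0309) fell with Col11a2 and Col20a1. Calls over all 12393 genes also grew in that fit, from 1132 higher and 956 lower to 1641 and 1632. Another Col9a3 probe set fell by 1.51 with all arrays (adjusted p = 0.0165).

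Some collagens were high in single lymphomas and did not pass. Col14a1, a FACIT, read 10.01 in lymphoma 3 and 8.67 in lymphoma 4, 4.67 to 5.32 in the other 3, and 3.99 to 6.25 in wild type (median 4.25; difference 1.88, SE 0.992; adjusted p = 0.229). The wild-type arrays highest for it were 1 and 6, at 6.11 and 6.25. Col11a1 read 8.60 in lymphoma 4, 5.27 in lymphoma 3 and 4.41 to 4.45 in the others, against 4.08 to 4.52 in wild type (median 4.30; adjusted p = 0.284). Col1a2 read 6.47, 7.08 and 7.07 in lymphomas 1, 4 and 5, 4.63 and 4.45 in lymphomas 2 and 3, and 4.24 to 5.21 in wild type (median 4.77; difference 1.20; adjusted p = 0.137). Its partner Col1a1 read 5.11 to 5.91 in the lymphomas, against 5.33 to 5.92 in wild type. Lymphoma 4 was high in all 3 of Col14a1, Col11a1 and Col1a2, and it was also the highest for Col17a1, at 6.26 against 4.39 to 5.75 in the other lymphomas. Lymphoma 3 shared the high Col14a1, and lymphomas 1 and 5 the high Col1a2. Col4a1 was lowest in lymphoma 4.

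Col5a1 varied most within the wild-type cells. It read 5.22 and 5.49 on arrays 3 and 4 and 8.10 to 9.69 on the other 4, with an SD of 1.86, and 5.83 to 7.97 in the lymphomas. The median SD of the members was 0.388 in wild type and 0.256 in the lymphomas, against 0.42 and 0.262 for all genes.

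**Figure D4:**
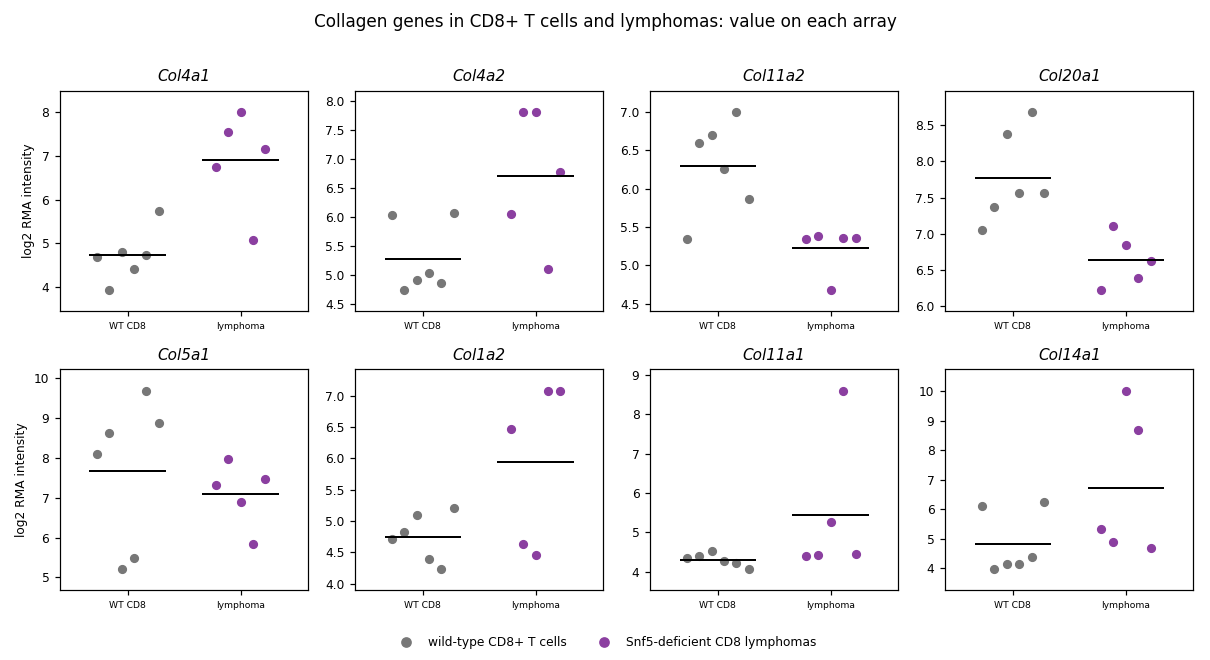
Log2 RMA intensity (y axis, a separate scale per panel) of 8 collagen genes on the 6 wild-type CD8+ T cell arrays and the 5 lymphoma arrays; points are arrays in order of their number and black lines are group means. Col4a1 lies at 5.08 to 8.01 in the lymphomas against 3.94 to 5.75 in wild type, and Col14a1 and Col11a1 reach 10.01 and 8.60 in single lymphomas.

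The counts of partner genes in the lymphomas are to be read against 9.13% of all genes higher and 7.71% lower. Of 18 folding genes 3 rose and 3 fell. Without wild-type arrays 1 and 6 the counts were 6 and 4, in a fit where 1641 of all 12393 genes rose and 1632 fell. The lysyl hydroxylases Plod2 and Plod1 rose by 1.73 and 1.57 (adjusted p = 0.00726 and 0.00192), and P3h3, of a prolyl 3-hydroxylase complex, rose by 1.02 (adjusted p = 0.00292). P4ha1, the catalytic chain of prolyl 4-hydroxylase, fell by 1.48 (adjusted p = 0.00928), from a wild-type mean of 10.12 (SD 0.67, n = 6) to 8.64. Of the 9 trimming and cross-linking genes 0 passed in limma, and Loxl3 had the smallest p (-0.71, adjusted p = 0.107). Of the 9 proteoglycans 0 passed (Lum 0.37, adjusted p = 0.37), and of the 13 basement membrane partners 0 passed (Agrn -1.10, adjusted p = 0.0524). Of 7 receptors Itga2 fell by 0.87 (adjusted p = 0.0332), near the floor in wild type on 5 of 6 arrays and called without 4 of 11 single arrays. Of 12 proteases and inhibitors Reck fell by 3.74 (adjusted p = 5.82e-05) and Timp2 by 1.91 (adjusted p = 0.00306). Of 17 TGF-beta genes 1 rose and 6 fell, against the same 9.13% and 7.71%. Tgfb3 rose (adjusted p = 0.013), and those that fell were led by Smad7 (-4.19), the receptor Tgfbr1 (-2.51), Ski (-2.18) and Eng (-2.06), with adjusted p of 0.00558, 1.15e-05, 0.00539 and 0.00546. Reck thus moved in opposite directions in the lymphomas and in the Snf5 Ezh2-deficient MEFs, in fits of different arrays whose difference was not tested.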

How the data were processed

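RNA of MEFs, CD8+ T cells and lymphomas was hybridised to Affymetrix arrays, and the authors preprocessed the scans with Robust Multichip Average (RMA), per the labels' protocols, with no version stated. The deposited numbers are linear RMA intensity values, and log2 was taken here. The repeated controls carry different values in the 2 MEF sets, so each set was compared with its own wild type. Of the probe sets, 64 controls were dropped and 22626 tested. Genes came from the platform annotation (20380 probe sets name 1 gene, 691 several, 1555 none). Repeated MEF controls, which differed by an SD of 0.0219 to 0.0241 against 0.137 to 0.152 for other pairs, were counted once, and the offset between them moved the second set to the first set's scale. The fits used limma 3.58.1 (lmFit, then eBayes, under R 4.3.3; Benjamini-Hochberg adjustment), leaving 6 residual degrees of freedom for MEFs and 9 for T cells. The number of arrays limits the precision. The design had planned features of protein sequences, which were not used here. The steps were tested on simulated data.

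The collagens and the lists were chosen with earlier results of these data known. The text names any collagen, per other list and comparison up to 4 called genes with the largest change, or the smallest p where none passed, defining cell type markers beside a collagen result, Ezh2 and Smarcb1. Further genes of the trimming, folding and marker lists (such as Loxl1, Loxl3, Lox, Serpinh1 and the smooth muscle markers), Tgfb3 in the lymphomas, Eif2s3y and Xist were chosen after their values were seen. Settings tried were median centring, a filter on low values, an intensity trend with robust prior, array weights, the mean of probe sets, own-set fits, 12 MEF arrays as distinct, a replicate block and each array left out. Leaving out wild-type CD8 arrays 1 and 6, and Eif2s3y as a covariate, were added after seeing the data.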

Additional observations from a re-analysis of the deposited data

Results flagged for a closer look

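Single arrays that lay far from the rest of their group were found in 5 of 72 groups of collagen values of the T cells and lymphomas, where chance gives about 1 in 20. Col11a1 in lymphoma 4 read 8.60 against 4.41 to 5.27 in the other lymphomas. Col11a2 in lymphoma 3 read 4.68 against 5.34 to 5.38. Col16a1 and Col4a5 in lymphoma 1 read 5.11 and 3.53, against 5.34 to 5.36 and 3.70 to 3.74. Col1a1 on wild-type CD8 array 1, which also had low Cd8a, read 5.33 against 5.71 to 5.92.

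The Snf5 Ezh2 effect differed from the Ezh2 effect, by the test of the difference itself, for 13 collagens. The differences were 1.59 for Col18a1, 1.53 for Col2a1, 1.44 for Col5a3, 1.35 for Col11a1, 0.98 for Col10a1 and 0.71 for Col6a2. They were -0.84 for Col5a1, -0.79 for Col7a1, -0.72 for Col12a1, -0.70 for Col4a2, -0.67 for Col4a1, -0.48 for Col8a1 and -0.22 for Col4a3. Both effects share their wild-type arrays, so this test sets the mutant lines against each other.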

How the results depend on the processing

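No collagen changed direction and passed the test under any setting tried. With each array left out in turn, the number of collagens called was 0 to 2 for Ezh2-deficient MEFs, 8 to 14 for Snf5 Ezh2-deficient MEFs, 10 to 14 for the difference between both effects and 1 to 4 for the lymphomas. In the Snf5 Ezh2-deficient MEFs 8 was reached without mutant array 2, and Col2a1, Col4a2, Col5a1, Col5a3, Col7a1, Col11a1, Col12a1 and Col18a1 were called without each of the 6 arrays. For the difference, taking 12 arrays as distinct samples left 8 calls. For the lymphomas, leaving out wild-type CD8 arrays 1 and 6 gave 6, and leaving out wild-type array 3, lymphoma 1 or lymphoma 5 gave 1. Without arrays 1 and 6 calls over all 12393 genes also grew, from 1132 higher and 956 lower to 1641 and 1632. Whether the same replicate numbers pair the samples stayed undecided, since only same-numbered arrays were correlated. The correlations of deviations were 0.13, 0.149 and -0.0281 between wild-type and Ezh2-deficient MEFs. They were 0.0237, 0.0283 and -0.0405 between wild-type and Snf5 Ezh2-deficient MEFs, and 0.109, -0.0985 and -0.217 between both mutant groups. For the T cells and lymphomas they were 0.0799 to 0.312. With a replicate block 0, 14, 12 and 2 collagens were called in the 4 comparisons, in the order Ezh2-deficient, Snf5 Ezh2-deficient, difference and lymphomas. In the Snf5 Ezh2-deficient MEFs Col3a1 and Col6a2 were gained (adjusted p = 0.0405 and 0.0286) and Col11a2 lost (0.0558). In the difference Col6a1 was gained (0.0473), and Col4a3 and Col10a1 were lost (0.0529 and 0.0582). In the lymphomas Col11a2 was lost (0.0515). Among the partner genes named, the block ended the Ezh2-deficient calls of Itga2 (0.0579), Mmp2 (0.0655), Nid1 (0.0614) and Tgfb3 (0.0613) and the Snf5 Ezh2-deficient calls of Sec23a (0.0672) and Ddr2 (0.051). Under the remaining settings for all arrays the counts were within 1.5 times those reported, and with Eif2s3y as a covariate they were 0, 13 and 10 in the MEF comparisons. Members near the floor, 7 in MEFs and 14 or 15 in T cells and lymphomas, limit what small differences can show.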

Other observations

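Smarcb1 itself was not equally low in the lymphomas. It read 5.81 and 5.64 in lymphomas 3 and 4, the arrays where Col14a1 read 10.01 and 8.67, and 8.30, 8.49 and 8.67 in lymphomas 1, 2 and 5, where Col14a1 read 4.67 to 5.32. The fibroblast marker Fap also read highest in these arrays, at 11.15 and 8.29 against 6.84 to 7.04 in the other 3. The whole fibroblast list did not set them apart, with means of 9.06 and 8.90 in lymphomas 3 and 4 and 8.93 in lymphoma 2. In lymphomas 1 and 5 it was 8.62 and 8.50. Lymphomas 3 and 4, and Fap, were singled out after their values were seen.

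Hapln1, a link protein of cartilage matrix, read 9.13 and 8.90 in lymphomas 1 and 5 and 3.72 to 3.96 in the other 3. Matn1, another cartilage protein, read 9.56 in lymphoma 4 and 6.02 to 6.24 elsewhere in that group, and lymphoma 4 was also the array with Col11a1 at 8.60. Acan and Col2a1 read 3.67 to 4.16 and 4.60 to 5.21 across all 5 lymphomas.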
